A study of Mus musculus with 23 samples.

Results

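Ribosome footprints on 2398 long 5′ untranslated regions of mouse intestinal organoids are described here. Each is an entry for the 5′ region of a transcript that is 300 bases or longer and that held at least 30 footprints when the 6 organoid Ribo-seq libraries were added up. They were taken from 13140 such entries of this length, from 44641 5′ entries of any length, and from 103761 entries in all, of which 59120 were coding sequences. They belonged to 2091 genes, 264 of which had 2 or more, and 2080 had a coding entry of the same transcript name. They were chosen by the measured sum of footprints, so that their abundance is a description and not a finding.

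The footprint libraries were 3 of *Rptor* fl/fl organoids and 3 of stem cell enriched (SCe) organoids, both grown from crypts of C57BL/6 mice. Every library came from organoids with a Villin-CreERT2 transgene, which drives a tamoxifen-inducible recombinase in the intestinal epithelium, and with RPL22.HA, a tagged ribosomal protein by which ribosomes were pulled down. The *Rptor* fl/fl organoids also carried floxed *Rptor* alleles, which encode the Raptor subunit of mTORC1. Their label calls them untreated, while the paper's methods describe induction with tamoxifen. The SCe organoids had no floxed *Rptor* allele and were kept in 10 µM CHIR 99021 and 1.5 mM valproic acid, so that genotype and medium differ together and cannot be told apart. Cycloheximide at 100 µg/ml was present in all 6. RNA-seq of the same kinds of organoid was used as a second readout, with 2 *Rptor* fl/fl lines that lacked RPL22.HA and 3 SCe libraries.

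A ribosome normally enters an mRNA at its cap and scans the 5′ region until it meets a start codon in a good context. Short open reading frames (ORFs) in the 5′ region can capture it first, which lowers initiation at the main start codon, and in some stress-response mRNAs they relieve this block when initiation factor eIF2 is phosphorylated. mTORC1 acts on the same step through the cap-binding factor eIF4E and its inhibitors. A footprint on a 5′ region can come from such an ORF, but also from any other RNA fragment of that sequence that survives digestion.

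The sequences that matter for reading the values are of 2 kinds, upstream ORFs of genes known for them and stretches that are also another RNA. They were read from the annotated transcripts, GENCODE vM21 on GRCm38 (mm10), and each was found unchanged in the genome at the stated position. In the ORFs the start codon, and the stop codon where the whole ORF is shown, are in capitals. The first 6 lines give whole ORFs and the 2 after them the start of the longest upstream ORF. Some of these regions hold further ORFs, and whether the printed ones are regulatory was not tested.
*Amd1* (chr10:40302155-40302175, minus strand): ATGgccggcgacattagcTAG
*Atf4* (chr15:80255582-80255593, plus strand): ATGgcgtatTAG
*Atf5* (chr7:44816526-44816537, minus strand): ATGgctctgTAG
*Azin1* (chr15:38514482-38514505, minus strand): ATGatagggggttccatctccTAA
*Odc1* (chr12:17544921-17544947, plus strand): ATGacgacgtgctcggcgtataagTAG
*Ppp1r15b* (chr1:133131468-133131494, plus strand): ATGgtggagcgatctcacacggccTAG
*Ppp1r15b*, longest (chr1:133131508-133131537, plus strand): ctagccgggATGgacctaaccgcggtcgcc
*Mkks*, longest (chr2:136885659-136885688, minus strand): caacagactATGagctttcagaatctctgg
The *Amd1* ORF has 6 codons before its stop and ends 296 bases before the coding start, that of *Atf4* has 3 codons and ends 184 bases before it, and the longest ORFs of *Ppp1r15b* and *Mkks* have 51 and 59 codons.

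The second kind is shown because these stretches carried the most heavily covered entries. In the *Trim17* 5′ region the capitals mark the start codon of the histone gene *Hist3h2a*, and in that of *Mettl26* they mark the anticodon of a glycine tRNA gene, n-TGccc7, of 71 bases.
*Trim17* (chr11:58954729-58954758, plus strand): cagtggaagATGtctggtcgtggcaagcag
*Mettl26* (chr17:25875107-25875136, plus strand): atcatgcaagattCCCattcttgcgacccg

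Footprints are estimated counts that the authors obtained with Salmon on coding and 5′ entries together, and CPM are these counts relative to library sizes scaled by TMM. The libraries held 6240746, 6662697 and 8584977 footprints in *Rptor* fl/fl and 2129894, 1169578 and 4372286 in SCe, so that a value of 3 counts stands for 0.356 to 0.483 CPM in the first group and 0.696 to 2.36 CPM in the second. On a log scale over tested entries, replicates correlated at 0.834 to 0.872 within *Rptor* fl/fl and at 0.687 to 0.726 within SCe. Epithelial markers summed to 18173 to 18756 CPM of coding footprints in *Rptor* fl/fl and to 8200 to 12186 CPM in SCe, against 3.96 to 11.9 CPM for stromal markers over all 6. Erythroid markers were at 1.42 to 4.51 CPM in *Rptor* fl/fl but reached 224 CPM in 1 SCe library, with *Alas2* among those at 0, and their part in the results below was not tested. Immune markers were at 1.58 to 7.07 CPM over all 6, with *Cd3e*, *Cd79a* and *Jchain* among those at 0. Markers of differentiated cells were higher in *Rptor* fl/fl, those of enterocytes at 8078 to 8587 CPM against 998 to 3804, of goblet cells at 3064 to 5080 CPM against 1094 to 1542, of Paneth cells at 6617 to 9770 CPM against 3442 to 6388, of enteroendocrine cells at 478 to 572 CPM against 31.7 to 64.3 and of tuft cells at 19.3 to 38.8 CPM against 5.85 to 11.04. In such bulk libraries fewer cells of a type and less RNA per cell cannot be told apart. The mRNA of *Rptor* measured 14.9 and 15.6 CPM in *Rptor* fl/fl, against 61.2, 54.3 and 54.0 CPM for SCe (log2 change −1.89, edgeR adjusted p = 0.00105). Its coding footprints overlapped between groups, at 16.7, 17.8 and 15.6 CPM against 13.7, 38.6 and 21.1 CPM.

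Long 5′ regions took a small share of all footprints. In *Rptor* fl/fl the 2398 entries held 107361, 118897 and 137625 footprints, or 1.79, 1.86 and 1.67 for each 100 on coding entries. In SCe they held 54540, 25525 and 59349, or 2.75, 2.31 and 1.40. The *Rptor* fl/fl libraries lay close together, while the SCe libraries spread to both sides of them. Shorter 5′ entries spread in the same order, at 2.23, 2.47 and 2.20 for each 100 coding footprints in *Rptor* fl/fl and at 4.53, 3.23 and 1.56 in SCe.

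The footprints were unevenly spread over the regions. The median was 88.0 footprints, the upper quartile was 168, and the highest had 64689. The 5 highest held 21.9% of the footprints on all 2398 entries and the 100 highest held 43.9%. The regions had a median length of 441 bases, up to 8973, and a median GC content of 61.0%, against 55.2% among the 10742 entries of the same length with fewer than 30 footprints. An ATG lay upstream of the coding start in 86.6% of them, against 92.2% of the entries with fewer footprints. A C followed by 4 pyrimidines at the first base, as in the TOP mRNAs that mTORC1 is known to control, was found in 54 of them (2.25%), against 2.34% of the others.

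Some entries also matched other RNAs in part. Every entry was cut into windows of 28 bases, about a footprint, and each window was looked up in the other entries. Of the 2398, 1806 shared no window with a coding entry or with another gene and held 60.5% of the footprints. A further 326 shared windows with a coding entry of their own gene (9.80%), 157 with another gene's coding entry (20.6%) and 87 with another gene's 5′ entry (3.17%), and 22 overlapped an annotated small RNA gene (5.88%). An entry was classed by any shared window, so that these percentages do not say where in an entry its footprints lay. Single entries weighed heavily on them. *Trim17* alone held 64689 of the 103823 footprints of the 157 entries. *Ccnb1ip1* and *Mettl26* held 14733 and 11675 of the 29596 on the 22 entries. For 42 entries, with 17.3% of the footprints, the gene had fewer than 3 coding footprints over all 6 libraries. Of the 87191 footprints on these 42, *Trim17* held 64689 and *Ccnb1ip1* 14733.

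**Figure D1:**
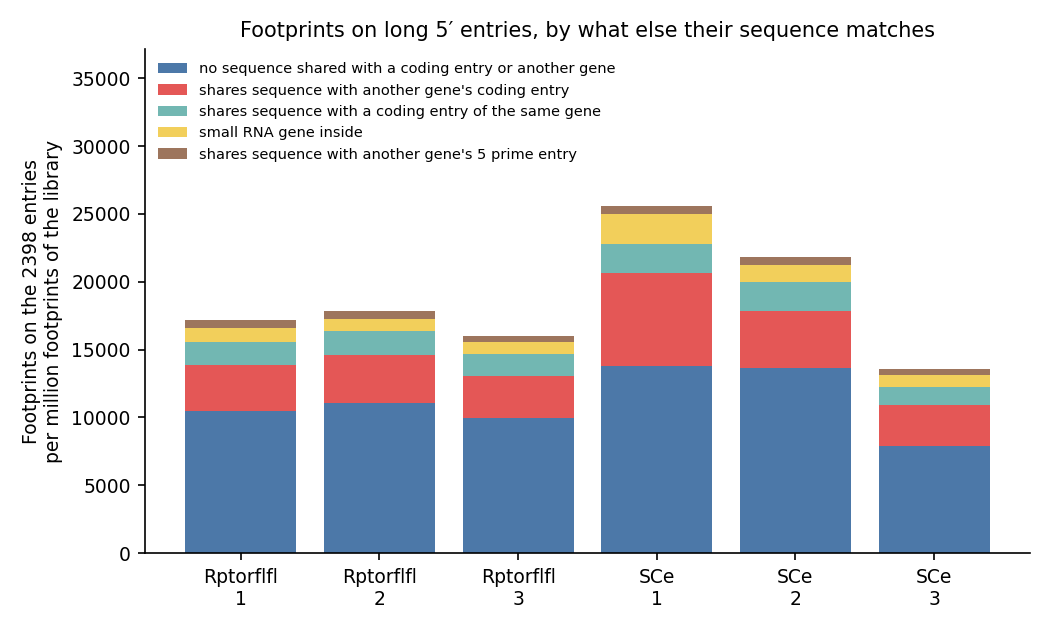
Bars give, for each of the 6 libraries, footprints on the 2398 long 5′ entries in CPM of its raw total, stacked by what else the sequence of the entry matches. Unshared sequence is the largest block in every library, and SCe 1 is the highest bar and SCe 3 the lowest.

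*Trim17*, which encodes a ubiquitin ligase of the tripartite motif family, had the highest entry. It is 724 bases long, spliced over chr11:58954685-58965118 on the plus strand, and belongs to a transcript that is not a principal isoform. It held 11780, 13363 and 16501 footprints in *Rptor* fl/fl and 10747, 3564 and 8735 in SCe, which is 1895, 2019 and 1959 CPM against 5241, 2809 and 2025 CPM. Every SCe library was above every *Rptor* fl/fl library, SCe 3 by little (log2 change −0.78 ± 0.36 SE, edgeR adjusted p = 0.409). *Trim17* coding entries had 0 footprints in every library, and so did the coding entry of *Hist3h2a*. The mRNA of *Trim17* was at 0 and 0.0499 CPM in *Rptor* fl/fl and at 0.261, 0.0643 and 0.0346 CPM in SCe. Of the windows of the *Trim17* entry, 59.1% are also in the *Hist3h2a* coding entry, and windows are shared with 17 other genes in all. The ORF that begins at the *Hist3h2a* start codon, shown in capitals above, runs for 130 codons within the *Trim17* 5′ region. In 35.6% of its windows the *Trim17* entry matches no other entry, and which stretch its footprints lay on was not tested.

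*Ccnb1ip1*, which encodes a ubiquitin ligase known from meiotic crossing over, held the next highest entry and again had no coding footprints. Its 5′ region (chr14:50793855-50807732, minus strand) overlaps *Rpph1*, the RNA component of RNase P. The values were 348, 343 and 294 CPM in *Rptor* fl/fl and 1710, 951 and 720 CPM in SCe, with no overlap (log2 change −1.78 ± 0.34 SE, edgeR adjusted p = 0.0717). *Mettl26* (chr17:25875074-25875529, plus strand), whose 5′ region contains the tRNA gene shown above, had 552, 379 and 480 CPM in *Rptor* fl/fl and 424, 119 and 156 CPM in SCe. These groups overlapped through SCe 1 (log2 change 1.01 ± 0.51 SE, edgeR adjusted p = 0.451). Set against the coding entry of its own transcript, with 296, 342 and 453 footprints in *Rptor* fl/fl and 270, 134 and 326 in SCe, the *Mettl26* ratio had a log2 change of 2.54 (edgeR adjusted p = 0.234, and below the threshold with DESeq2 or without the count filter). Whether these footprints come from ribosomes or from the small RNAs was not tested.

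Among the other regions of the 10 with most footprints, *Scd2*, a fatty acid desaturase, had 308, 483 and 506 CPM in *Rptor* fl/fl and 784, 359 and 333 CPM in SCe on an isoform whose own coding entry was at 0, while the coding entries of the gene held 8907, 10674 and 13073 footprints in *Rptor* fl/fl and 2790, 1542 and 7052 in SCe. *Ucp2*, a mitochondrial carrier, was at 259, 235 and 211 CPM in *Rptor* fl/fl and at 109, 139 and 83.8 CPM in SCe. The *Ucp2* groups did not overlap, with a log2 change of 1.09 ± 0.22 SE that missed the threshold (edgeR adjusted p = 0.0796). Only 9.12% of the windows of this *Ucp2* entry are in it alone. Summed over the gene, *Ucp2* 5′ footprints had a log2 change of 0.73 (edgeR adjusted p = 0.0655) and its coding footprints one of 1.33 (edgeR adjusted p = 0.0452). *Cldn7*, a tight junction claudin, was at 154, 191 and 157 CPM against 169, 143 and 100 CPM. *Atp1b1*, a subunit of the sodium pump, was at 136, 171 and 130 CPM against 204, 191 and 86.5 CPM. Both overlapped between groups, as did *Akr1a1*, an aldehyde reductase, at 156, 128 and 137 CPM against 140, 115 and 149 CPM. The *Gapdh* entry is a non-principal isoform, 18.3% of whose windows are also in the coding entry of *Gm10358* and 17.9% in that of *Gm3839*. An upstream ORF of 8 codons lies in this entry, and which stretch its footprints lay on was not tested. The *Gapdh* entry was at 74.8, 112 and 110 CPM in *Rptor* fl/fl and 280, 99.8 and 86.0 CPM in SCe.

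The longest regions differed in how densely they were covered. *Noct*, which encodes the circadian protein nocturnin, has an entry of 7618 bases with 129 ATG triplets. The longest ORF within this entry runs for 1070 codons. Of the windows of the entry, 92.9% are in it alone and 1.07% are also in another gene's coding entry. Which stretch its footprints lay on was not tested. The *Noct* entry held 1203, 1530 and 1960 footprints in *Rptor* fl/fl and 399, 206 and 1057 in SCe, or 194, 231 and 233 CPM against 195, 163 and 245 CPM, and the groups overlapped. Its gene had only 85, 99 and 132 coding footprints in *Rptor* fl/fl and 23, 13 and 57 in SCe. *Tmbim1*, with 8973 bases the longest of all, had 33.3, 20.7 and 5.95 CPM in *Rptor* fl/fl and 4.12, 2.998 and 3.62 CPM in SCe. All *Rptor* fl/fl libraries were above all SCe libraries, but they differed among themselves by more than 5 times. *Rsbn1l*, with 4624 bases, had 13, 11 and 9 footprints against 5, 2 and 1.

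In the test over all entries, none of the long 5′ regions was called different between the groups. Of 19970 entries tested by edgeR's quasi-likelihood test, 85 were higher in *Rptor* fl/fl (0.426%) and 76 lower (0.381%), which is 0.806% in either direction, with Benjamini-Hochberg adjusted p under 0.05. Among the 4532 5′ entries of any length 0.0441% were called. The 1748 long 5′ entries that passed the filter on low counts gave 0 calls, with 151 (8.64%) at an unadjusted p under 0.05, beside 14.8% of all entries and 9.75% of 5′ entries, and a smallest adjusted p of 0.0509. DESeq2 called 54 of them higher and 74 lower (3.09% and 4.23%), beside 7.19% and 6.34% of all entries and 2.93% and 4.72% of 5′ entries. The groups did not overlap for 186 of the 1748 upward (10.6%) and 185 downward (10.6%), while among all tested entries these shares were 15.5% and 12.1%, and among tested 5′ entries 9.05% and 11.7%. The median log2 change was −0.08, beside 0.00 over all entries tested. The filter keeps entries that are high in either group, so that these shares describe the entries tested and not all 2398.

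**Figure D2:**
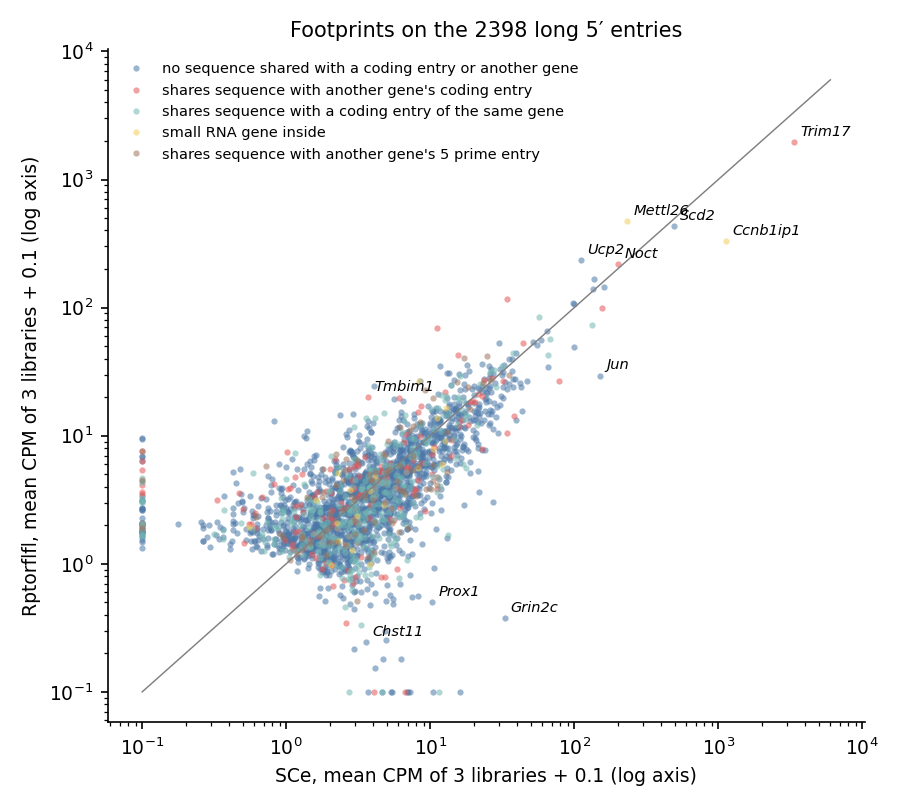
Each point is 1 of the 2398 long 5′ entries, with the mean CPM of the 3 SCe libraries on the x axis and of the 3 Rptorflfl libraries on the y axis, both plus 0.1 and on log axes, coloured by what else its sequence matches. Most points lie along the line of equality, Trim17 and Ccnb1ip1 lie at the upper right, and entries with 0 footprints in 1 group form the lines at the left (57 entries) and at the bottom (14 entries).

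The split of footprints between isoforms entered these values. For 391 of the 2398 entries (16.3%) every window was also found in another 5′ entry of the gene, and for 590 (24.6%) each window was in that entry alone. *Nfe2l1*, a transcription factor of proteasome genes, and *Herc4*, a ubiquitin ligase, were picked after their values had been seen, because each has 2 such entries that trade places. The 677-base entry of *Nfe2l1* held 61, 63 and 70 footprints in *Rptor* fl/fl and 0 in every SCe library, and the 660-base entry held 0 in every *Rptor* fl/fl library and 14, 15 and 54 in SCe. Added over all 5′ entries of the gene, *Nfe2l1* had 119, 119 and 150 footprints in *Rptor* fl/fl and 33, 17 and 79 in SCe (log2 change 0.19 ± 0.24 SE, edgeR adjusted p = 0.68). The 373-base entry of *Herc4* held 0 in every *Rptor* fl/fl library and 17, 10 and 19 in SCe, and its 361-base entry held 47, 27 and 59 in *Rptor* fl/fl and 0 in every SCe library. The gene's sum was 59, 37 and 63 against 18, 10 and 19 (log2 change 0.16 ± 0.40 SE, edgeR adjusted p = 0.846). Neither swap was left once the entries of a gene were added. *Amd1*, which encodes S-adenosylmethionine decarboxylase of the polyamine pathway, and its near-identical copy *Amd2* showed the same kind of split between genes. *Amd1* had 0, 25 and 63 footprints in *Rptor* fl/fl and 27, 9 and 32 in SCe, while *Amd2* had 39, 27 and 24 and 0 in every SCe library, so that neither value can be read alone.

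All 5′ entries of a gene were then added up, so that they no longer competed with each other for footprints. Sharing with coding entries and with other genes remained in these sums. Of the 1841 genes with a long 5′ region that were tested, 26 were higher in *Rptor* fl/fl and 42 lower. Among all gene and region sums tested, 3.72% were higher and 5.43% lower, and among the 5′ sums 1.40% and 2.39%. The members' shares of 1.41% and 2.28% were thus near those of all 5′ sums. The genes with the 5 largest changes in each direction are named here from this alternative, after their values had been seen, and their counts are those of the long entry. The falls lay on 4 genes whose coding footprints were lower too. *Chst11*, a chondroitin sulfotransferase, had 1, 1 and 1 footprints on its 5′ entry in *Rptor* fl/fl and 10, 3 and 14 in SCe (adjusted p = 0.0509 per entry and 0.00848 in the sum per gene, both by edgeR). *Prox1*, a homeobox factor of enteroendocrine and lymphatic cells, had 4, 2 and 2 against 13, 7 and 81 (0.0608 and 0.00956). *Tpbg*, a membrane antigen known as 5T4, had 2, 2 and 6 against 10, 6 and 54 (0.0637 and 0.0088). *Nrgn*, neurogranin, had 1, 0 and 0 against 8, 6 and 15 (0.0658 and 0.00786). The counts of *Chst11* and *Nrgn* in *Rptor* fl/fl are under the floor of 3, and no fold is given for them. Their coding footprints, summed per gene, gave log2 changes between −5.40 and −2.94, with edgeR adjusted p of 0.00388 for *Chst11*, 0.0042 for *Prox1*, 0.0031 for *Tpbg* and 0.0044 for *Nrgn*.

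The remaining fall was on *Grin2c*, an NMDA receptor subunit, with 1, 2 and 3 footprints in *Rptor* fl/fl and 178, 7 and 26 in SCe, and SCe 1 was by far the highest. Its coding entries held 1 footprint over all 6 libraries. The rises included *Zc3h11a*, a zinc finger protein of mRNA export, a symbol that 2 annotated genes carry. The first, with an entry of 347 bases, had 36, 29 and 58 footprints in *Rptor* fl/fl against 0, 2 and 0 in SCe (edgeR adjusted p = 0.279 per entry and 0.00551 in the sum per gene). The second *Zc3h11a* gene, with an entry of 355 bases, had 46, 13 and 30 against 38, 16 and 0 (edgeR adjusted p = 0.813). Since 74.7% of the windows of the first entry are also in an entry of another gene, neither *Zc3h11a* value can be read alone. The other rises were on the predicted gene *Gm16503*, with 13, 29 and 33 against 0, 1 and 1, and on 3 genes at 0 in every SCe library. These were *Amd2*, *Nr1i3*, a nuclear receptor of xenobiotics, with 13, 22 and 29 footprints in *Rptor* fl/fl, and *Slco2b1*, an organic anion transporter, with 10, 10 and 12. Both of the last also had lower coding footprints in SCe, at 35, 51 and 75 against 0, 1 and 6 for *Nr1i3* and at 112, 124 and 171 against 5, 5 and 23 for *Slco2b1*. Some of the 5′ signal had no coding counterpart at all. *Lum*, a stromal proteoglycan with 0 coding footprints and 0 RNA-seq counts in every library, had 24, 26 and 11 footprints on its 5′ entry in *Rptor* fl/fl and 1, 0 and 0 in SCe.

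The ratio of a 5′ region to its coding sequence is meant to remove changes in mRNA level. It can do so only where both entries count footprints of the same mRNA, which shared sequence and splits between isoforms can prevent. Summed over the 2080 pairs of the same transcript name, there were 17.1, 17.7 and 15.7 footprints on 5′ entries for each 100 on coding entries in *Rptor* fl/fl (16.8 ± 1.04, SD, n = 3) and 31.8, 23.7 and 13.2 in SCe (22.9 ± 9.35, SD, n = 3). SCe 1 and SCe 2 were above all *Rptor* fl/fl libraries and SCe 3 was below them. The mean difference was −0.36 on the log2 scale and the exact two-sided permutation test over libraries gave p = 0.4, where 3 against 3 cannot go below 0.1. Restricting the sum to the 1609 pairs without shared sequence gave 11.2, 11.9 and 10.5 against 18.0, 15.9 and 8.21, and the median over 1488 regions with at least 30 coding footprints gave 16.09, 16.99 and 16.05 against 25, 19.48 and 9.04. The order of the libraries was the same in each. Without SCe 1 the difference in the main sum was −0.08, and without SCe 3 it was −0.71, so that single SCe libraries set its size.

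**Figure D3:**
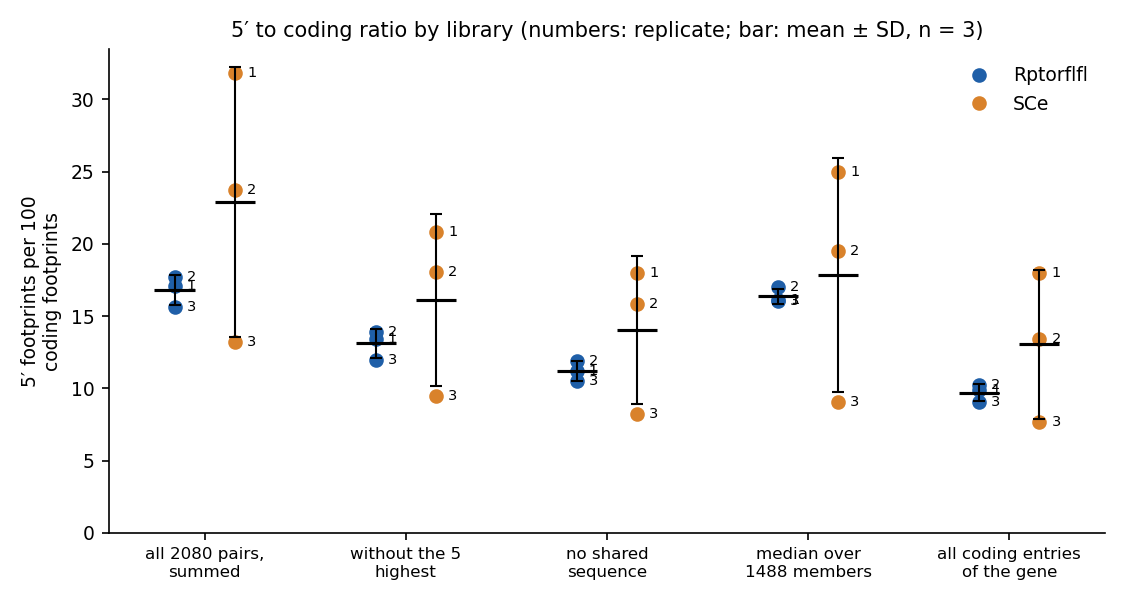
Points give footprints on long 5′ entries for each 100 on coding entries in each library, with the replicate number beside each point and the mean ± SD of 3 libraries as bars, for the main sum and 4 other ways of taking the ratio. SCe 1 is highest and SCe 3 lowest in each, on both sides of the tight Rptorflfl points.

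Transcript by transcript, no ratio of a 5′ region to its coding entry passed the test. Of 2606 transcripts with enough footprints on both entries, 0 were called in either direction (0%) by edgeR, with 222 (8.52%) at an unadjusted p under 0.05. The 1026 with a long 5′ region likewise gave 0, with 76 (7.41%) at an unadjusted p under 0.05 and a smallest adjusted p of 0.0726, while DESeq2 called 16 of them higher and 15 lower (1.56% and 1.46%), beside 1.27% and 2% of all transcripts. Their median log2 change was 0.07, beside 0.02 over all transcripts tested. Each region was scaled to its own typical entry in this test. With 1 library size for both regions the medians fell to −0.26 and −0.32, again with 0 calls.

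Per base, the long 5′ regions chosen here usually carried fewer footprints than the coding entry of the same transcript. Over the 1488 regions with at least 30 footprints on the coding entry, the median ratio of footprints per base was 0.739 with quartiles of 0.316 and 1.48, and 563 (37.8%) exceeded 1. The same 5′ counts chose these regions, so the median describes them alone. In the wider set of 1718 genes described below, whatever the 5′ count, the median was 0.0762 against the gene's coding entries. The lowest were on abundant mRNAs, but as every member held at least 30 footprints, a very low ratio required many coding footprints. *Ppia*, cyclophilin A, had 0.000427, with 0, 16 and 5 footprints on its 5′ entry in *Rptor* fl/fl and 4, 1 and 4 in SCe, beside 18607, 18890 and 24518 coding footprints in *Rptor* fl/fl. *Fabp2*, the intestinal fatty acid binding protein, had 0.00252, and the ribosomal protein genes *Rpl35* and *Rplp2* had 0.00287 and 0.00359. *Arf1*, a GTPase of vesicle traffic, had 0.00522. In the 5 highest the coding entry of the same name was close to empty while the gene's other coding entries were not. *Trim24* had a ratio of 49.2, with 16, 0 and 15 coding footprints on the same transcript but 338, 420 and 598 over the gene in *Rptor* fl/fl, and *Mprip* (33.3), *Mms22l* (27.6) and *Utrn* (26.5) were alike in this. *Ddi2*, a protease, had 45.4 with 502, 526 and 768 footprints on the 5′ entry and 182, 424 and 381 over the gene's coding entries in *Rptor* fl/fl, of which 8, 13 and 16 were on the same transcript. Among all 2398, 545 had under 30 footprints on their own coding entry although their gene had 30 or more.

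The density of footprints was also compared by the number of ATG triplets in the region. In 1008 genes with an unshared principal 5′ entry and at least 30 coding footprints, 1 entry per gene, the median density over that of the gene's coding entries was 0.308 with no ATG (n = 182), 0.494 with 1 or 2 (n = 406), 0.681 with 3 to 5 (n = 288) and 0.763 with 6 or more (n = 132). The regions with more ATGs were also longer, with medians of 376, 408, 456.5 and 714.5 bases. The rule of 30 footprints acts on the same counts, so a wider set was taken of 1718 genes with a single principal 5′ entry of 300 bases or more, shared or not, and at least 300 coding footprints, whatever the 5′ count. There the medians were 0.127, 0.124, 0.0506 and 0.0150 in the same order. Within that wider set the 848 entries that met the rule of 30 footprints had medians of 0.276, 0.389, 0.476 and 0.330, so that with all else kept the rule alone altered the order. No test was made of any of these series, and the comparison within the wider set was added after the others had been seen.

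**Figure D4:**
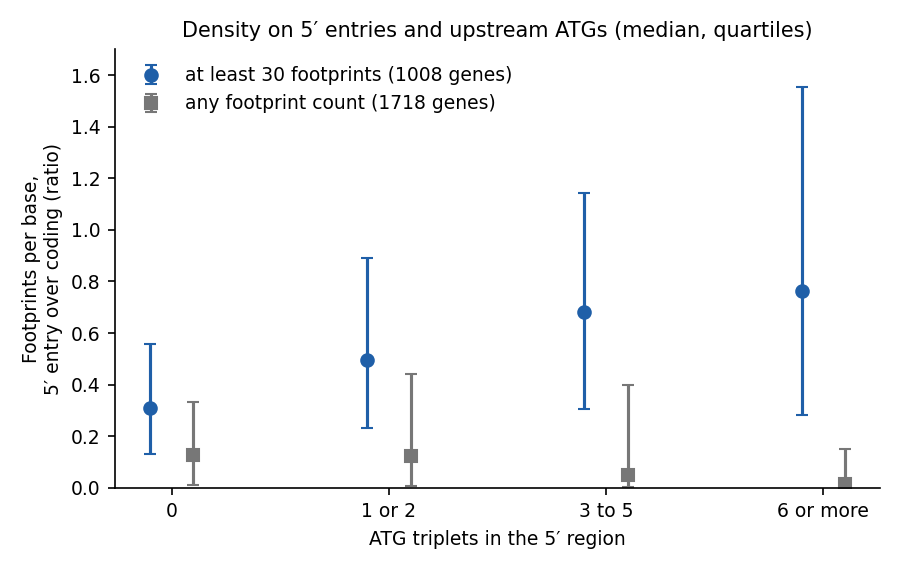
The x axis groups 5′ regions by their number of ATG triplets and the y axis gives the ratio of footprints per base on the 5′ entry to that on coding entries, as the median with quartiles. Medians rise from 0.308 to 0.763 among unshared regions with at least 30 footprints (circles) and fall from 0.127 to 0.0150 in the wider set of regions of any count, which also has a higher coding minimum (squares).

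Among genes known for regulation by upstream ORFs, *Ppp1r15b*, which directs dephosphorylation of eIF2α, had 236, 205 and 226 footprints on its 5′ entry in *Rptor* fl/fl and 75, 50 and 148 in SCe, beside 370, 313 and 460 and 68, 39 and 275 on its coding entry. That is 63.8, 65.5 and 49.1 for each 100 coding footprints against 110, 128 and 53.8, and the groups overlapped through SCe 3. *Atf4*, the transcription factor of the integrated stress response, had 25.2, 30.6 and 33.2 CPM on its 5′ entry in *Rptor* fl/fl and 25.7, 13.9 and 12.7 CPM in SCe (log2 change 0.76 ± 0.36 SE, edgeR adjusted p = 0.424). The coding footprints of *Atf4* rose, at 457, 338 and 468 in *Rptor* fl/fl against 25, 27 and 122 in SCe (log2 change summed over the gene 1.52, edgeR adjusted p = 0.0216), while its mRNA did not pass the test (log2 change 0.32, edgeR adjusted p = 0.0852). Its ratio to the coding entry of the same transcript had a log2 change of −0.13 (edgeR adjusted p = 0.961). *Atf5*, a related factor, had 103, 55 and 82 footprints against 7, 3 and 53 on its 5′ entry, with 108, 58 and 94 against 10, 4 and 36 on coding entries. *Eif5*, an initiation factor that limits its own synthesis, had 142, 238 and 274 against 79, 36 and 60. *Ibtk*, a gene with stress-responsive upstream ORFs, had 38, 28 and 51 against 18, 3 and 23, and *Ppp1r15a*, the inducible partner of *Ppp1r15b*, had 7, 1 and 7 against 1, 1 and 19, beside 8, 14 and 10 coding footprints in *Rptor* fl/fl and 0 in every SCe library. Of these 6 genes, 5 were tested and 0 were called, with a median log2 change of 0.18.

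In the polyamine pathway, upstream ORFs are known that respond to polyamine levels. Whether the ORFs printed above are the responsive ones was not tested. *Azin1*, the antizyme inhibitor, had 278, 189 and 303 footprints on its 5′ entry in *Rptor* fl/fl and 21, 29 and 152 in SCe. Summed over all 5′ entries of the gene these became 278, 294 and 303 against 78, 46 and 152, beside 236, 251 and 349 against 37, 31 and 136 coding footprints, so that the 5′ region held about as many footprints as the coding sequence. *Odc1*, ornithine decarboxylase, was far lower on its 5′ entry, with 8.08, 13.6 and 11.7 for each 100 coding footprints of the gene against 13.4, 33.6 and 6.75. None of the 5 entries of *Azin1*, *Odc1* and *Amd1* was called, and the median log2 change was −0.98, beside 0.00 over all entries. Footprints of *Azin1* and *Amd1* were split between entries, so that this median is not a change per gene.

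In *Rptor* fl/fl, 3 genes with a known upstream peptide had more footprints on the 5′ region than on the coding sequence. These entries are in part not specific, since 45.1% of the windows of the *Mkks* entry and 21.3% of those of *Mief1* are in another gene's coding entry and 46.6% of those of *Slc35a4* are in a coding entry of its own gene. *Mkks*, which encodes a chaperonin-like protein, had 190, 177 and 234 footprints summed over its 5′ entries in *Rptor* fl/fl and 75, 23 and 80 in SCe, beside 14, 6 and 21 and 9, 0 and 8 coding footprints. *Mief1*, a regulator of mitochondrial fission, had 92, 70 and 88 against 25, 8 and 42, beside 53, 38 and 73 and 12, 8 and 74. *Slc35a4*, a nucleotide sugar transporter gene, had 131, 195 and 212 on its long entry against 31, 34 and 101, beside 80, 8 and 38 and 25, 17 and 80. The 5′ region was higher than the coding sequence in all 3 *Rptor* fl/fl libraries for each of these genes, and in SCe only *Mief1* had a library, SCe 3, with fewer on the 5′ side, beside SCe 2, where both sides had 8. None of the 5 entries was called, and their median log2 change was 0.21.

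**Figure D5:**
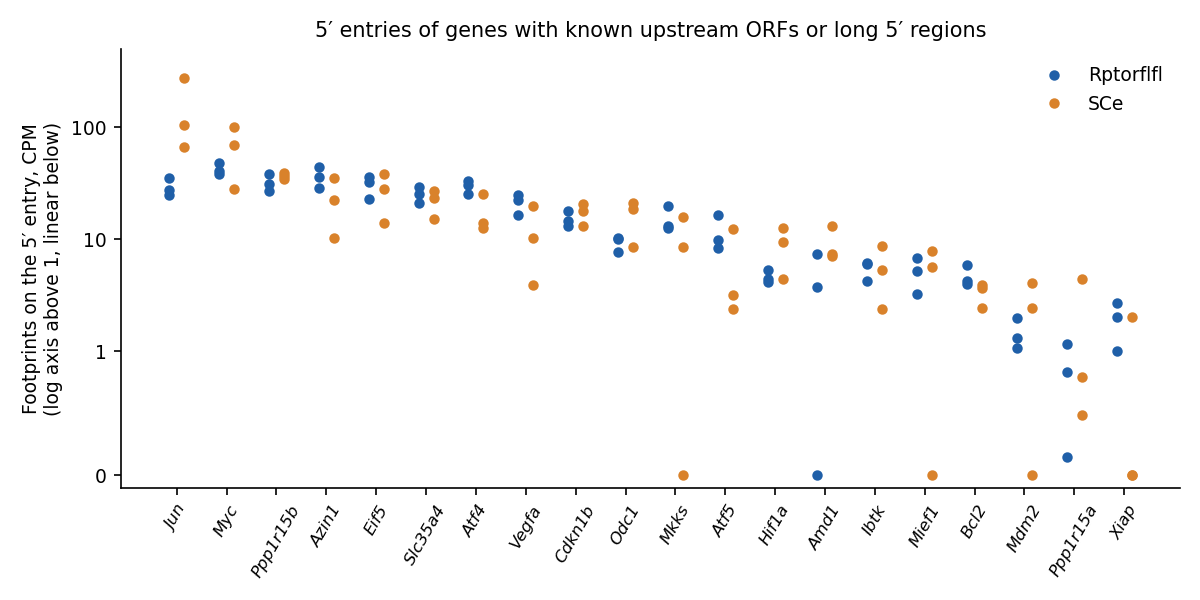
Points give CPM on the 5′ entry in each of the 6 libraries for 20 genes with known upstream ORFs or long 5′ regions, ordered by their mean, on an axis that is logarithmic above 1 CPM and linear below. Jun is the clearest separation, with SCe above Rptorflfl, and most other genes overlap.

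Among genes known for long or structured 5′ regions, *Jun*, an AP-1 transcription factor, stood apart. Its 5′ entry of 962 bases (chr4:95051272-95052222, minus strand) contains no ATG and shares no sequence, and it was at 27.7, 35.2 and 24.9 CPM in *Rptor* fl/fl and at 105, 278 and 66.8 CPM in SCe. The groups did not overlap, with a log2 change of −2.35 ± 0.57 SE (edgeR adjusted p = 0.114 per entry and 0.0189 in the sum per gene). SCe 2 was by far the highest library, and without it the log2 change per entry was −1.45 (edgeR adjusted p = 0.125). The coding footprints of *Jun* were lower as well (log2 change −1.60, edgeR adjusted p = 0.0336), its ratio had a log2 change of −0.32 (edgeR adjusted p = 0.83), and its mRNA was at 21.7 and 27.8 CPM in *Rptor* fl/fl against 340, 45.2 and 41.3 CPM in SCe (edgeR adjusted p = 0.127). *Myc* was at 41.0, 38.7 and 47.7 CPM against 100, 69.2 and 27.99 CPM. *Vegfa*, an angiogenic factor, was at 16.4, 24.8 and 22.3 CPM against 10.2, 19.7 and 3.94 CPM. The cell cycle inhibitor *Cdkn1b* was at 14.5, 18.0 and 13.2 CPM against 13.2, 20.5 and 18.1 CPM, and *Bcl2*, an inhibitor of apoptosis, at 4.02, 5.89 and 4.27 CPM against 2.44, 3.94 and 3.71 CPM, so that only *Bcl2* of these was above SCe in every *Rptor* fl/fl library. *Hif1a*, the hypoxia factor, had 26, 35 and 37 footprints against 26, 12 and 19. The apoptosis inhibitor *Xiap* had 6, 18 and 17 against 4, 0 and 0, and *Mdm2*, the ligase of p53, had 8, 13 and 9 against 5, 5 and 0. Of 12 entries of the 9 genes of this list, 10 were tested and 0 were called (median log2 change −0.10).

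Entries of the mTOR pathway and of cap-dependent initiation showed no call among the 8 tested of 12 (median log2 change 0.00). *Pabpc1*, the poly(A)-binding protein and a TOP mRNA, had 5.92, 7.21 and 4.89 footprints on its 5′ entry for each 100 coding footprints of the gene in *Rptor* fl/fl and 7.80, 5.52 and 4.97 in SCe. *Eif4g1*, the scaffold of the cap-binding complex, was at 53.2, 39.6 and 40.3 CPM against 40.4, 45.9 and 26.9 CPM, and *Eif4g2*, its relative without a cap-binding part, at 23.6, 18.2 and 23.3 CPM against 20.7, 30.0 and 22.6 CPM. *Eif4e*, the cap-binding factor, spread within *Rptor* fl/fl at 42.2, 29.2 and 8.95 CPM against 8.44, 3.08 and 13.3 CPM on an entry that overlaps the microRNA gene *Mir1956*. *Rheb*, the GTPase that activates mTORC1, had 46, 34 and 35 footprints against 36, 11 and 19. *Rptor* itself had 15, 4 and 10 footprints on its 5′ entry against 1, 8 and 7 and was too low to test.

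Stem cell and Wnt genes gave 0 calls among 10 entries tested (median log2 change −0.28). *Axin2*, a Wnt target, was at 18.3, 17.4 and 14.4 CPM in *Rptor* fl/fl and at 15.6, 49.7 and 21.8 CPM in SCe, and *Sox9*, a factor of crypt progenitors, at 15.0, 17.4 and 12.8 CPM against 19.5, 38.6 and 7.88 CPM. SCe 2 was the highest library for both. The Wnt receptors *Fzd5* and *Fzd7* were at 16.04, 14.8 and 14.9 CPM against 14.1, 17.4 and 6.49 CPM, and at 8.53, 3.93 and 5.34 CPM against 4.88, 15.8 and 5.56 CPM. *Ephb3*, a receptor of crypt cell sorting, had 54, 130 and 120 footprints against 34, 25 and 10, *Tcf7l2*, the Wnt effector, had 18, 61 and 61 against 10, 2 and 2, and *Rnf43*, which removes Frizzled receptors, had 30, 25 and 40 against 5, 4 and 43. None of the 17 fetal-like and YAP genes had a long 5′ entry with enough footprints, and the same held for the Paneth, goblet, enteroendocrine, tuft, immune and erythroid lists. The epithelial markers had 4 entries, 3 of them tested, the enterocyte markers had 3, of which 1 was tested, and the stromal markers had that of *Lum*, which was too low to test, and 0 were called.

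RNA-seq of the same genes did differ widely. Of 15086 genes tested by edgeR, 3164 were higher in *Rptor* fl/fl (21%) and 3287 lower (21.8%). Of the 2078 tested genes with a long 5′ region, 670 were higher (32.2%) and 277 lower (13.3%), and the median log2 change was 0.17 beside −0.01 over all genes. The *Rptor* fl/fl libraries held 72.3% of the footprints that chose these genes, beside 73.7% of all footprints, and the part of this choice in the RNA shares was not tested. As examples among the genes named above, mRNA was higher for *Cldn7* (log2 change 0.86), *Vegfa* (0.77), *Tmbim1* (0.99), *Fzd5* (1.13) and *Ucp2* (0.47), and lower for *Ccnb1ip1* (−3.57), *Nrgn* (−5.61), *Chst11* (−2.03), *Mettl26* (−0.58), *Odc1* (−0.44) and *Eif4e* (−0.50). Both directions were thus found, and the adjusted p of these 11 genes was between 0.00132 and 0.0368.

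At the edges of the rule, *Atf5* and *Chtop* had entries of 300 bases with 303 and 265 footprints and were included, while *Cdx2* and *Prag1* had entries of 299 bases with 507 and 252 footprints and were not. *Add1* and *Ajuba* had 30 footprints each and were included, and *Pex2* and *Atp6v0b* had 29.994 and 29.948 and were not.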

How the data were processed

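Ribo-seq was measured in 3 *Rptor* fl/fl and 3 SCe organoid libraries, and RNA-seq in 2 *Rptor* fl/fl lines (2 technical libraries each, summed) and 3 SCe libraries. Groups were taken from the labels. Footprints had been selected by size on a gel, and the authors used cutadapt 1.18 for trimming, discarded reads from ribosomal RNA and quantified the rest with Salmon 1.1.0 on GENCODE vM21. The deposited values used are estimated counts, not scaled for depth. Every 5′ entry had the length of the annotated 5′ region plus 11 bases, so it includes the start codon, and 48553 of 59120 coding entries that of the coding sequence plus 46. Salmon shares footprints of identical sequence between entries by estimation, which can move them between isoforms. Not used here are the in vivo and WT libraries and the authors' table of translation efficiency ratios, changes and p-values.

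Counts were rounded and tested in R 4.3.3 with edgeR 4.0.16 (filterByExpr, TMM, quasi-likelihood, Benjamini-Hochberg adjustment at 0.05). There were 3 such tests, of footprints over all entries, of the interaction of region and group with the library as a term over all transcripts with both entries, and of RNA per gene. SE is the log2 change divided by the root of F. The summed ratio was tested by an exact permutation over libraries (scipy 1.17.1). The scripts were tested on simulated data. p-values measure the spread between these libraries, which may be technical, and the floor of 3 counts covers counting error only.

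Regions and the 16 gene lists were chosen with earlier results of these data known. Regions named are the 10 with most footprints, those past adjusted p 0.05 with groups that do not overlap (none), those of genes in the lists of upstream ORFs and long 5′ regions, those with at least 100 footprints in the mTOR, stem cell and fetal-like lists, the 5 highest and 5 lowest ratios per base, the 3 longest and those beside each threshold, a gene counting once. One gene that this rule names is not reported here. *Nfe2l1*, *Herc4*, *Rptor*, *Lum* and the changes in the sum per gene were added after their values had been seen. Alternatives were DESeq2 1.42.0, no count filter, each replicate left out, a replicate block, a threshold of 0.01, sums per gene, and other library sizes and sets of regions. Same-numbered footprint libraries did not deviate together (correlations of −0.05, 0.02 and 0.03).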

Additional observations from a re-analysis of the deposited data

How the results depend on the processing

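For long 5′ regions called in footprints, against 0 by edgeR, DESeq2 gave 54 higher and 74 lower, the sum per gene 26 higher and 42 lower, and a library size from coding entries alone 0 higher and 2 lower, while no count filter, a threshold of 0.01 and leaving out any replicate (range 0 to 0) gave 0. The library size from coding entries alone gave 141 higher and 116 lower over all entries. For the ratio, against 0, DESeq2 gave 16 higher and 15 lower, no count filter 6 and 1, and no library term 4 and 1, beside 33 and 52, 13 and 9, and 8 and 22 over all transcripts, while the sum per gene, 1 library size and leaving out any replicate (range 0 to 0) gave 0. For RNA of the genes, against 670 higher and 277 lower, a threshold of 0.01 gave 332 and 124, and leaving out a replicate gave 270 to 958 higher and 88 to 406 lower, the counts moving by over 1.5 times without either *Rptor* fl/fl line (270 and 102, 273 and 88) and without SCe 3 (395 and 179). Over all genes, against 3164 higher and 3287 lower, the threshold of 0.01 gave 1487 and 1554. Leaving out a replicate gave 1216 to 4582 higher and 1293 to 4519 lower over all genes. The cause of these shifts was not tested. The summed ratio lay between −0.71 and 0.00 (log2) under the alternatives tried, the range over leaving out a replicate being −0.71 to −0.08, and its sum over unshared regions (−0.25) was added after seeing the data. A block on the replicate number gave 0 calls for footprints and for the ratio. In RNA it gave 361 higher and 154 lower of these genes, beside 1690 and 1755 over all genes. The labels tie the libraries by number only. Same-numbered RNA libraries correlated at 0.33 and 0.29, but with 2 pairs this does not establish a pairing. Among named regions, *Ccnb1ip1*, *Ucp2*, *Jun*, *Chst11*, *Nrgn*, *Prox1*, *Tpbg* and the first *Zc3h11a* entry passed the footprint threshold by DESeq2 (adjusted p between 4.06e-06 and 0.00353), and so did the ratio of *Mettl26* by DESeq2 (0.0019) and without the count filter (0.0283). SCe libraries held 1169578 to 4372286 footprints, so that low regions could not be tested there.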
